A study of Mus musculus with 12 samples.

Results

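The hepatic genes described here are 10 enzymes of the methionine cycle and of the one-carbon reactions around it: Mat1a, Mat2a, Gnmt, Pemt, Nnmt, Ahcy, Bhmt, Cbs, Cth and Shmt1. They were taken by gene symbol from the 16035 genes of the deposited table, each symbol matched 1 gene identifier, and 10 of the 10 passed the filter on low counts. Liver RNA came from wild-type C57BL/6 mice in a study of experimental nonalcoholic steatohepatitis. The groups were HFCF feeding for 3 months, normal chow for 3 months, HFCF feeding for 1 month and normal chow for 1 month, with 3 biological replicates each and 12 libraries in all. The mice fed for 3 months were 6 months old and those fed for 1 month were 3 months old, and age and length of feeding cannot be told apart. The labels name the diet HFCF without spelling it out, and they do not say whether a replicate was 1 mouse or a pool.

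The methionine cycle supplies the methyl groups of the cell. Methionine is activated to S-adenosylmethionine (SAM), methyltransferases pass its methyl group to glycine, phospholipids, nicotinamide and other acceptors, and the S-adenosylhomocysteine left behind is split into adenosine and homocysteine. Homocysteine is then either remethylated to methionine or drawn off through cystathionine to cysteine. The liver carries out most of this metabolism, and hepatocytes are the cells that hold its enzymes at high levels.

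The promoter windows of 3 of these genes are shown as examples of both directions of change described below. Mat2a rose under HFCF feeding, and Gnmt and Ahcy fell. Each window holds the 250 bases before the RefSeq start in GRCm38.p6, read 5′ to 3′ on the minus strand, at chr6:72439557-72439806 for Mat2a, chr17:46729166-46729415 for Gnmt and chr2:155074498-155074747 for Ahcy. Capitals mark matches, on either strand, to the GC box GGGCGG, the CCAAT box, the TATA box TATAAA, the E-box CACGTG or the HNF4 motif CAAAGTCCA, and touching matches run together.
Mat2a: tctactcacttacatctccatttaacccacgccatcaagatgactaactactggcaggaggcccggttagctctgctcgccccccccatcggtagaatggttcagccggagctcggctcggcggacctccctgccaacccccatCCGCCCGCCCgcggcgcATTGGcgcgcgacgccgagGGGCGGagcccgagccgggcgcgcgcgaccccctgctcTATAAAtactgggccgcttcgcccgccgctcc
Gnmt: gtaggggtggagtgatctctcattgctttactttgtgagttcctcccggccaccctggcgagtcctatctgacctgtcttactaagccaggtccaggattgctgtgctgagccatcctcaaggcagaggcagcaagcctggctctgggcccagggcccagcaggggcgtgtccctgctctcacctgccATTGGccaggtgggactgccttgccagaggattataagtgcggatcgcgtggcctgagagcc
Ahcy: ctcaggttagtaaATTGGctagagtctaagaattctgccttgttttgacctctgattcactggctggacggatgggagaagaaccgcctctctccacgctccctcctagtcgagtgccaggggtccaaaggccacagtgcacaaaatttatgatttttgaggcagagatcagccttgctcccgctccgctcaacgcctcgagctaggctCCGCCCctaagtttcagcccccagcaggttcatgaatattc

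The Mat2a window held 29 CpG dinucleotides and 67.6% G and C, with 3 GGGCGG matches, 1 CCAAT match and 1 TATAAA match. The Gnmt window held 6 CpG dinucleotides at 60.4% G and C, with 1 CCAAT match. In the Ahcy window there were 9 CpG dinucleotides at 52.8% G and C, with 1 GGGCGG match and 1 CCAAT match. Over 32851 RefSeq windows of the same length in 27025 genes the median was 6 CpG dinucleotides and 52.4% G and C. The Mat2a window thus had more CpG dinucleotides than 93.2% of windows, the Ahcy window more than 59.7% and the Gnmt window more than 49.6%. Windows not shown differed among the genes that fell. Cbs held 21 CpG dinucleotides at 68% G and C, more than 83.7% of windows, and Bhmt held 5, more than 44.4%. Shmt1, which did not pass the threshold, held 13, more than 68.5%. A link between CpG count and direction of change was not tested. GGGCGG was present in 32.7% of all windows, CCAAT in 33.8%, TATAAA in 12.4%, CACGTG in 6.02% and CAAAGTCCA in 0.384%. A match is a string of letters and was not tested as a binding site.

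The libraries held 13733485 to 20277572 counts. On the first principal component of log2 CPM, which took 42.7% of the variance, the HFCF livers at 3 months lay at 60.7, 63.8 and 29.3 and the other 9 libraries between -31.2 and -0.755, so replicate 3 of HFCF at 3 months stood apart from its group. On the second component, with 13.2% of the variance, replicate 1 of chow at 1 month lay at 36.8, against 0.00513 and 6.43 for the other chow livers at 1 month. The 12 hepatocyte markers examined, among them Alb and Apob, were all present in every group and summed to 91349 to 108783 CPM in HFCF livers at 3 months, against 127507 to 132413 CPM in chow livers. At 1 month that sum was 114538 to 127253 CPM in HFCF livers and 134353 to 157570 CPM in chow livers. Values below are CPM, read counts scaled to a common library size after TMM scaling of the libraries, unless FPKM is named. Changes are log2 fold changes ± SE of HFCF over chow from edgeR's quasi-likelihood test, and a gene is said to have risen or fallen when its Benjamini-Hochberg adjusted p over all 14725 genes tested was under 0.05.

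Per gene length, Mat1a was the most abundant of the 10 transcripts in every group. It averaged 1600 ± 557 FPKM in HFCF livers at 3 months and 3814 ± 326 FPKM in chow livers (SD, n = 3 each), which placed it 35th and 16th by mean level among the genes tested. Gnmt came next in all 4 groups, at 673 ± 192 FPKM in HFCF livers at 3 months and 1622 ± 281 FPKM in chow livers. Mat2a was the least abundant of the 10 in 3 of the groups, at 20.9 ± 2.44 FPKM in chow livers at 3 months. The exception was HFCF at 3 months, where Nnmt took the lowest place with 27 ± 12.2 FPKM beside Mat2a with 30.8 ± 4.17 FPKM, and the ranges of these neighbours overlapped. Nnmt took the fifth place in each of the other 3 groups, at 172 ± 18.9 FPKM in chow livers at 3 months. The middle of the order was close in HFCF livers at 3 months, where Pemt at 82.2 ± 3.46 FPKM, Ahcy at 76.8 ± 19.8 FPKM and Cbs at 74.4 ± 14.8 FPKM overlapped.

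After 3 months of HFCF feeding, RNA of at least 1 enzyme of SAM synthesis, methyl transfer, S-adenosylhomocysteine hydrolysis, remethylation and transsulfuration fell. Of the 10 genes, 7 fell (Mat1a, Gnmt, Nnmt, Ahcy, Bhmt, Cbs and Cth), 1 rose (Mat2a) and 2 did not pass the threshold (Pemt and Shmt1). Among all 14725 genes tested 7.50% fell and 11.5% rose, together 19.0%. The median change of the 10 genes was -1.25 on the log2 scale, beside -0.00 over all genes. The 7 that fell did so by 1.76-fold for Cbs to 6.86-fold for Nnmt. These are bulk livers, in which fewer hepatocytes and less RNA of a gene per hepatocyte cannot be told apart.

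**Figure D1:**
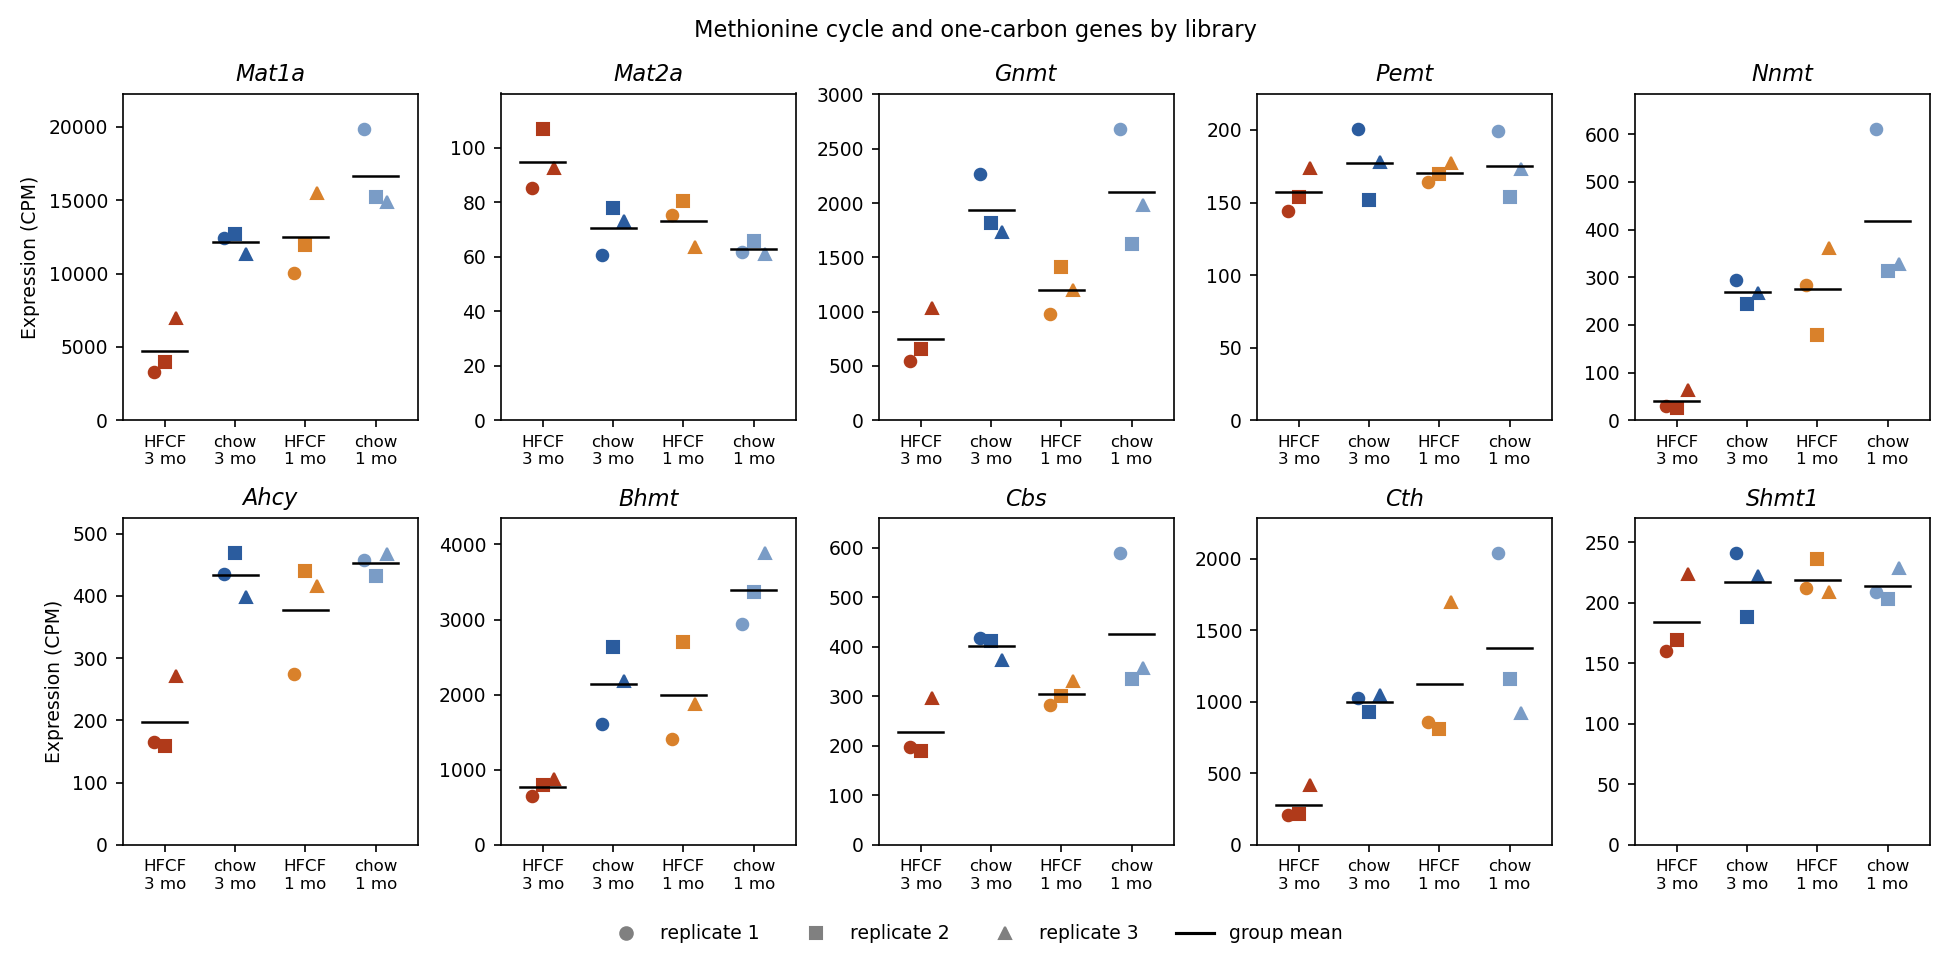
Expression of the 10 genes in each of the 12 libraries. The y axes give CPM on linear scales that start at 0 and differ between genes, the x axes give the 4 groups, marker shapes give the replicate number and horizontal lines the group means. For Mat1a, Gnmt, Nnmt, Ahcy, Bhmt, Cbs and Cth the 3 HFCF livers at 3 months sit below the 3 chow livers of that age, and for Mat2a they sit above.

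SAM synthesis is carried out by Mat1a, the catalytic subunit of the adult liver's methionine adenosyltransferase, and by Mat2a, the subunit used in most other tissues and in growing liver cells. Mat1a (chr14:41105381-41124412, mm10, plus strand, protein coding) had 3316, 3938 and 6940 CPM in HFCF livers at 3 months, against 12387, 12692 and 11362 CPM in chow livers. The groups did not overlap, and the highest HFCF liver, replicate 3, was still below the lowest chow liver. Groups did not overlap in the downward direction for 17.5% of all genes tested and in the upward direction for 19.3%. The means were 4731 ± 1938 CPM in HFCF livers and 12147 ± 697 CPM in chow livers (SD, n = 3 each), a change of -1.36 ± 0.26 (edgeR adjusted p = 0.00363), or 2.57-fold lower.

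Mat2a (chr6:72432799-72439558, minus strand, protein coding) moved the other way. It had 85, 107 and 92.6 CPM in HFCF livers at 3 months, against 60.6, 77.8 and 73.1 CPM in chow livers. The groups did not overlap, although the gap between the lowest HFCF liver and the highest chow liver was small. Mat2a rose 1.35-fold, by 0.43 ± 0.12 (edgeR adjusted p = 0.0219). This call was lost without replicate 1 of chow at 3 months, where the change was 0.33 (adjusted p = 0.0844), and without replicate 2 of HFCF at 3 months, where it was 0.33 (adjusted p = 0.114). The gene Particl is annotated on the opposite strand within Mat2a, and the strand counted is not given in the sources used here, so its count is less certain.

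The ratio of Mat1a to Mat2a within each library brings both changes together and does not depend on how libraries were scaled. Mat1a FPKM was 41.2, 38.9 and 79.1 times Mat2a FPKM in HFCF livers at 3 months, against 216, 172 and 164 times in chow livers. All 3 HFCF livers were lower than all 3 chow livers. The mean ratio was 53.1 ± 22.6 in HFCF livers and 184 ± 27.8 in chow livers (SD, n = 3 each), and the log2 ratios differed by -1.86 (two-sided exact permutation p = 0.1, the smallest that 3 against 3 allows). At 1 month the ratio was 140, 157 and 257 in HFCF livers, against 340, 244 and 259 in chow livers. The groups overlapped there, since HFCF replicate 3 exceeded chow replicate 2, and the log2 ratios differed by -0.64 (two-sided exact permutation p = 0.2). These ratios were computed from the same values as the changes above and are not separate evidence.

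**Figure D2:**
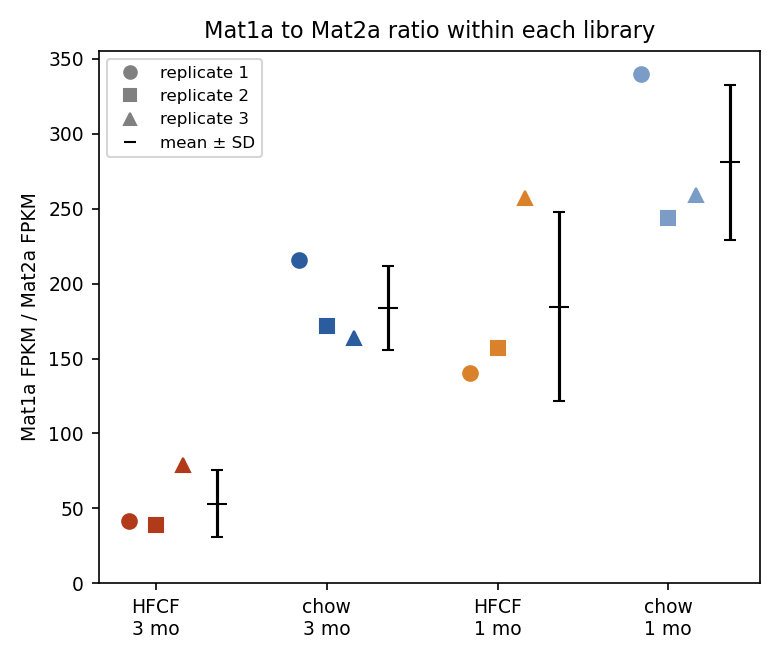
Ratio of Mat1a FPKM to Mat2a FPKM in each library, on a linear axis that starts at 0. Points are libraries by group and replicate number, and the black marks beside them are the mean ± SD of 3. The HFCF livers at 3 months sit between 38.9 and 79.1, below all other libraries, whose lowest value is 140.

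Of the methyltransferases that use SAM, Gnmt and Nnmt fell and Pemt did not pass the threshold. Gnmt (chr17:46725664-46729168, minus strand, protein coding) encodes glycine N-methyltransferase, an abundant hepatocyte enzyme that makes sarcosine from glycine and keeps SAM from building up. It had 546, 656 and 1038 CPM in HFCF livers at 3 months, against 2265, 1818 and 1734 CPM in chow livers. No HFCF liver reached the chow range. The means were 746 ± 258 CPM in HFCF livers and 1939 ± 285 CPM in chow livers (SD, n = 3 each), a change of -1.38 ± 0.25 (edgeR adjusted p = 0.00263). Its promoter window, shown above, was near the median in CpG count. A long noncoding RNA, Gm26904, overlaps it on the opposite strand.

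Nnmt (chr9:48591877-48605153, minus strand, protein coding) encodes nicotinamide N-methyltransferase, which spends SAM to methylate nicotinamide and so links methyl groups to NAD metabolism. It showed the largest change of the 10 genes. Nnmt had 29, 26.4 and 62.8 CPM in HFCF livers at 3 months, against 295, 244 and 267 CPM in chow livers. The chow livers lay close together, and the highest HFCF liver was far below them. The means were 39.4 ± 20.3 CPM in HFCF livers and 269 ± 25.6 CPM in chow livers (SD, n = 3 each), a change of -2.78 ± 0.41 (edgeR adjusted p = 0.00237), or 6.86-fold lower. Of all genes tested, 0.149% had a lower log2 fold change than Nnmt. By mean FPKM its place among all genes tested was 1718th in HFCF livers at 3 months and 311th in chow livers.

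Pemt (chr11:59970614-60046489, minus strand, protein coding) encodes phosphatidylethanolamine N-methyltransferase, which makes phosphatidylcholine by methylating phosphatidylethanolamine with SAM. It had 144, 154 and 174 CPM in HFCF livers at 3 months, against 201, 152 and 178 CPM in chow livers. The groups overlapped, and the change of -0.17 ± 0.12 did not pass the threshold (edgeR adjusted p = 0.354). Its change ranged from -0.28 to -0.05 over 22 alternative settings.

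Ahcy (chr2:155059310-155074497, minus strand, protein coding) encodes S-adenosylhomocysteine hydrolase, the enzyme that removes the inhibitory product of every SAM-dependent methylation. It had 165, 158 and 271 CPM in HFCF livers at 3 months, against 435, 469 and 399 CPM in chow livers. HFCF replicates 1 and 2 were nearly level, replicate 3 was higher, and none of them reached the chow range. The change was -1.14 ± 0.21 (edgeR adjusted p = 0.00303), or 2.2-fold lower. The antisense gene Gm45609 is annotated over Ahcy.

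Bhmt (chr13:93616891-93637961, minus strand, protein coding) encodes betaine-homocysteine S-methyltransferase, which returns homocysteine to methionine with a methyl group from betaine. It had 656, 793 and 872 CPM in HFCF livers at 3 months, against 1606, 2640 and 2185 CPM in chow livers. Here the 3 HFCF livers were close to each other and the chow livers spread more widely, without overlap. The means were 774 ± 110 CPM in HFCF livers and 2144 ± 518 CPM in chow livers (SD, n = 3 each), a change of -1.47 ± 0.24 (edgeR adjusted p = 0.00161). The related gene Bhmt2 and the antisense gene Gm15622, annotated over Bhmt, could share reads with it, which was not tested, so its count is less certain.

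The transcripts of both enzymes of transsulfuration, the exit from the cycle, fell. Cbs (chr17:31612623-31637199, minus strand, protein coding) encodes cystathionine beta-synthase, which joins homocysteine to serine. It had 198, 189 and 296 CPM in HFCF livers at 3 months, against 418, 412 and 373 CPM in chow livers. The groups did not overlap, and the change of -0.82 ± 0.21 (edgeR adjusted p = 0.0183) was the smallest of the 7 falls. The call was lost without chow replicate 2 (-0.81, adjusted p = 0.0583), without HFCF replicate 1 (-0.72, adjusted p = 0.0762) and without HFCF replicate 2 (-0.70, adjusted p = 0.0826) of the 3-month groups.

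Cth (chr3:157894248-157925077, minus strand, protein coding) encodes cystathionine gamma-lyase, which releases cysteine from cystathionine. Gm43314, a transcript marked as to be experimentally tested in the annotation, overlaps it on the same strand, so its count is less certain. Cth had 210, 218 and 415 CPM in HFCF livers at 3 months, against 1024, 928 and 1047 CPM in chow livers. The chow livers agreed closely, and HFCF replicate 3 was the highest of its group, below all of them. Cth averaged 281 ± 116 CPM in HFCF livers and 1000 ± 63.4 CPM in chow livers (SD, n = 3 each), a change of -1.83 ± 0.38 (edgeR adjusted p = 0.00864), or 3.56-fold lower. The ratio of Bhmt to Cbs FPKM, remethylation against transsulfuration, was 2, 2.53 and 1.78 in HFCF livers at 3 months, against 2.32, 3.86 and 3.53 in chow livers. Those ratios overlapped (two-sided exact permutation p = 0.2).

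Shmt1 (chr11:60788104-60811718, minus strand, protein coding) encodes the cytosolic serine hydroxymethyltransferase, which feeds one-carbon units from serine into the folate pool. It had 160, 169 and 224 CPM in HFCF livers at 3 months, against 241, 188 and 222 CPM in chow livers. The groups overlapped because HFCF replicate 3 exceeded chow replicates 2 and 3, and the change of -0.24 ± 0.13 did not pass the threshold (edgeR adjusted p = 0.235). Without HFCF replicate 3, the highest of its group, the change was -0.40 and passed (adjusted p = 0.0262). The protein-coding gene Smcr8 overlaps Shmt1 on the opposite strand.

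**Figure D3:**
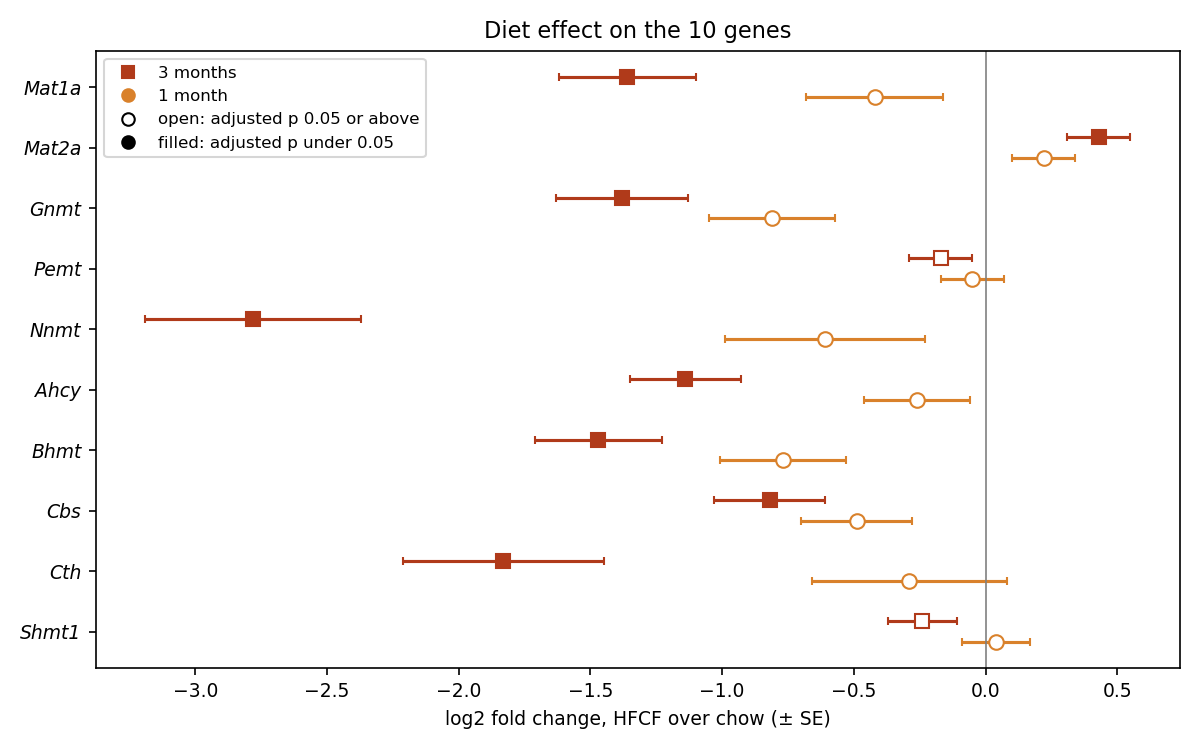
Log2 fold change of HFCF over chow (x axis, ± SE from edgeR) for each of the 10 genes (y axis), at 3 months as squares and at 1 month as circles. Filled symbols have an adjusted p under 0.05. At 3 months 8 symbols are filled, from -2.78 for Nnmt to 0.43 for Mat2a, and at 1 month none is.

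In each of the 7 genes that fell, replicate 3 of HFCF at 3 months was the highest of its group. Without that library the changes at 3 months were -1.75 for Mat1a, -1.69 for Gnmt, -3.28 for Nnmt, -1.43 for Ahcy, -1.57 for Bhmt, -1.05 for Cbs and -2.23 for Cth. In that setting 9 of the 10 genes passed, and 3631 of all genes did, against 2802 with all 12 libraries. Since that library was the highest of the lower group, leaving it out could only deepen these falls, and the direction is not tested by it. Mat1a, Gnmt, Nnmt, Ahcy, Bhmt and Cth kept their call at 3 months under all 22 alternative settings.

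The authors' deposited table gives log2 ratios of chow over HFCF, so that a positive value means lower in HFCF. Its adjusted p is a score that no header explains, read here as -10 times log10 of p. Read in this way, the authors' deposited table called the same 8 of the 10 genes at 3 months, in the same directions. In the authors' deposited table the ratio was 1.758 for Nnmt (adjusted p = 3.02e-07), 1.305 for Bhmt (adjusted p = 1.74e-08) and 1.195 for Mat1a (adjusted p = 7.7e-07). For Mat2a the authors' deposited table gives -0.4047 (adjusted p = 0.0132). Pemt and Shmt1 had adjusted p of 0.377 and 0.247 in the authors' deposited table.

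Among all genes the falls lay far out in the lower tail at 3 months. The share of the 14725 genes with a lower log2 fold change was 0.53% for Cth, 0.951% for Bhmt, 1.15% for Gnmt, 1.17% for Mat1a, 1.73% for Ahcy and 3.61% for Cbs. For Shmt1 it was 24.2% and for Pemt 30.7%, both inside the bulk of genes, and for Mat2a it was 81.4%.

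**Figure D4:**
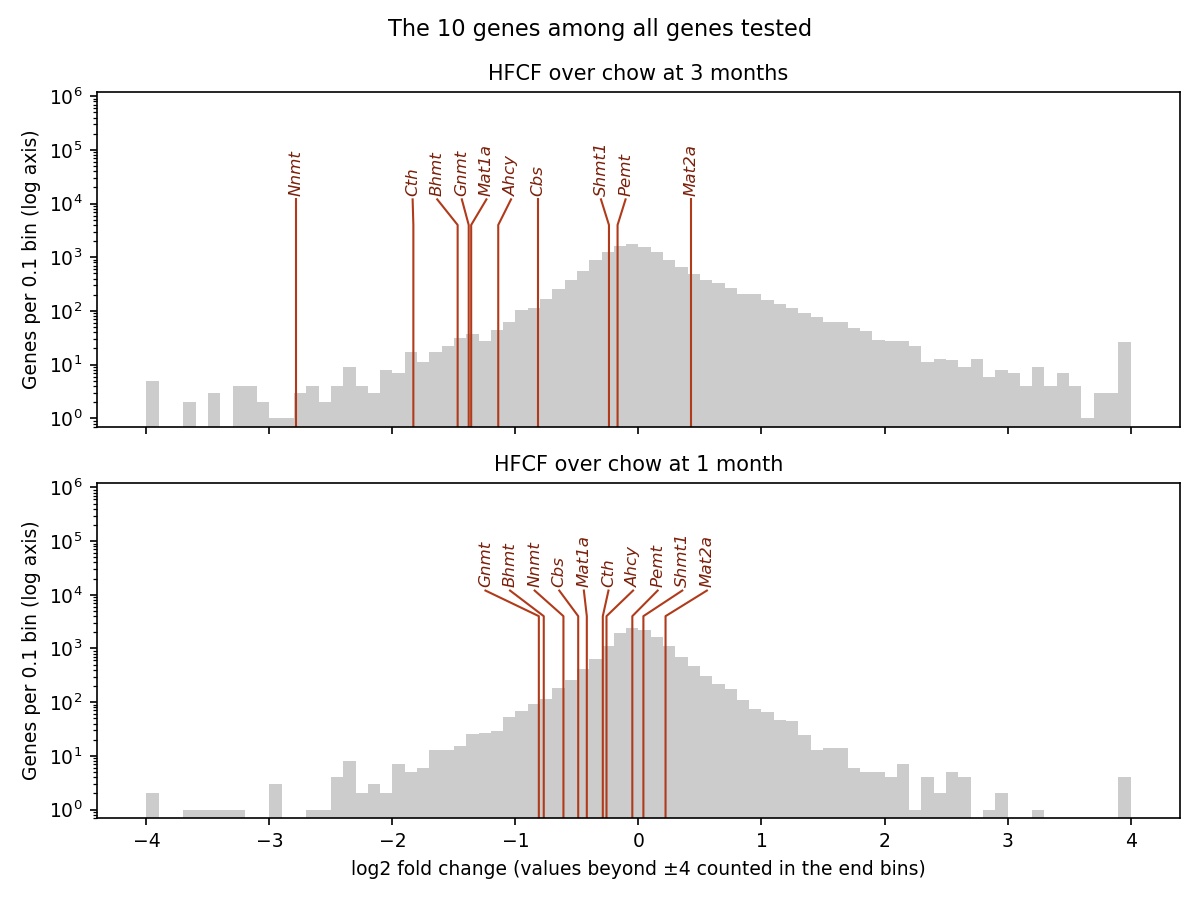
Histogram of log2 fold changes of HFCF over chow for all 14725 genes tested, at 3 months above and at 1 month below, with the number of genes per bin on a log axis and a line at the value of each of the 10 genes. At 3 months 7 lines sit between -2.78 and -0.82, left of the bulk, and at 1 month the 10 lines lie between -0.81 and 0.22.

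After 1 month of feeding none of the 10 genes passed the threshold in edgeR, and 3 had an unadjusted p under 0.05. DESeq2 called 2, Gnmt and Bhmt, and 631 of all genes. Among all genes edgeR called 2.04%, 1.04% higher and 1.01% lower, and 2397 had an unadjusted p under 0.05 in edgeR. Of the 10 log2 fold changes 8 were negative, with a median of -0.36, beside -0.00 over all genes. Gnmt, Bhmt and Cbs, the genes with the unadjusted p under 0.05, had groups that did not overlap. Groups did not overlap in the downward direction for 10.5% of all genes and in the upward direction for 10.1%.

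Gnmt had 979, 1412 and 1202 CPM in HFCF livers at 1 month, against 2686, 1625 and 1983 CPM in chow livers, a difference of -0.81 ± 0.24 (edgeR adjusted p = 0.113). All 3 HFCF livers were below the chow livers. Without replicate 3 of HFCF at 3 months, a library outside this comparison that shares its estimate of the spread, the adjusted p for Gnmt was 0.0443. Bhmt had 1404, 2706 and 1873 CPM in HFCF livers at 1 month, against 2936, 3372 and 3886 CPM in chow livers, a difference of -0.77 ± 0.24 (edgeR adjusted p = 0.116). HFCF replicate 2 came close to the lowest chow liver, and without it the difference was -1.05 (adjusted p = 0.0371). Since that library was the highest of the lower group, leaving it out could only deepen the Bhmt difference. Over 22 alternative settings Gnmt ranged from -0.96 to -0.59 and passed in 2. Bhmt ranged from -1.05 to -0.57 over these settings and passed in 3. In the authors' deposited table the 1-month ratio of chow over HFCF was 0.7097 for Gnmt (adjusted p = 0.0215) and 0.6829 for Bhmt (adjusted p = 0.0241).

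Cbs had 283, 300 and 330 CPM in HFCF livers at 1 month, against 589, 334 and 356 CPM in chow livers. The gap rested on a narrow margin, since HFCF replicate 3 was just below chow replicate 2, and the difference was -0.49 ± 0.21 (edgeR adjusted p = 0.272). The other values at 1 month overlapped between diets. Mat1a had 10001, 11909 and 15484 CPM in HFCF livers, against 19879, 15210 and 14902 CPM in chow livers, a difference of -0.42 ± 0.26 (edgeR adjusted p = 0.455). Nnmt had 284, 178 and 362 CPM in HFCF livers, against 612, 313 and 328 CPM in chow livers, a difference of -0.61 ± 0.38 (edgeR adjusted p = 0.484). In 5 of the 7 genes that fell at 3 months, replicate 1 of chow at 1 month, the library that stood apart, was the highest of its group.

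Cth at 1 month had 860, 806 and 1698 CPM in HFCF livers, against 2040, 1159 and 922 CPM in chow livers. Both groups were spread over a wide range, and the difference of -0.29 ± 0.37 (edgeR adjusted p = 0.759) turned to 0.11 without chow replicate 1. Ahcy had 274, 440 and 416 CPM in HFCF livers, against 458, 432 and 467 CPM in chow livers, a difference of -0.26 ± 0.20 (edgeR adjusted p = 0.566). HFCF replicate 1 was the only clearly low Ahcy value. Mat2a differed by 0.22 ± 0.12, Pemt by -0.05 ± 0.12 and Shmt1 by 0.04 ± 0.13 (edgeR adjusted p = 0.392, 0.898 and 0.926), and Pemt turned to 0.05 without chow replicate 1.

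Whether the diet effect differed between 3 months and 1 month was tested as a difference of the 2 effects. None of the 10 genes passed in edgeR, and 0.0407% of all genes did, 0.0204% in each direction. The point estimates were negative for 9 of the 10, with a median of -0.64. The largest were -2.17 ± 0.55 for Nnmt (adjusted p = 0.132; unadjusted p = 0.00293), -1.54 ± 0.53 for Cth (adjusted p = 0.203), -0.94 ± 0.36 for Mat1a (adjusted p = 0.234) and -0.87 ± 0.29 for Ahcy (adjusted p = 0.179). A larger effect at 3 months than at 1 month is therefore not shown for any of the 10 by edgeR with all 12 libraries. The count rests on replicate 3 of HFCF at 3 months: without it Mat1a (-1.33, adjusted p = 0.0177), Ahcy (-1.17, adjusted p = 0.013) and Nnmt (-2.67, adjusted p = 0.014) passed. For these genes that library was the highest of its group, so leaving it out could only make the differences more negative. Among all genes 878 passed in that setting, against 6 with all 12 libraries. DESeq2 with all 12 libraries called Nnmt alone of the 10 (-2.18, adjusted p = 0.0264), and 350 of all genes.

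Between 1 and 3 months on HFCF, 6 of the 10 genes changed. Mat1a (-1.40 ± 0.26), Bhmt (-1.37 ± 0.24), Ahcy (-0.93 ± 0.21), Cth (3.99-fold) and Nnmt (-2.81 ± 0.41) were lower at 3 months, with edgeR adjusted p in that order of 0.00472, 0.00326, 0.0109, 0.00825 and 0.00328. Mat2a was higher at 3 months by 0.38 ± 0.12 (edgeR adjusted p = 0.0422). Over all genes 6.95% fell and 9.25% rose in this comparison, 16.2% together. The HFCF livers of both times did not overlap in these 6 genes, nor did they in 14.9% of all genes in the downward and 17.2% in the upward direction. Gnmt (-0.68, adjusted p = 0.072), Cbs (-0.42, adjusted p = 0.189), Pemt (-0.11, adjusted p = 0.58) and Shmt1 (-0.25, adjusted p = 0.215) did not pass. Without replicate 3 of HFCF at 3 months Gnmt, Cbs and Shmt1 did, and 3562 of all genes passed, against 2385 with all 12 libraries. Here too the library left out was the highest of the lower group, which could only deepen these differences. The Ahcy call was lost without replicate 1 (adjusted p = 0.0556) or replicate 2 (adjusted p = 0.0582) of HFCF at 3 months. The Mat2a call was lost without replicates 2 or 3 of either chow group, replicates 1 or 3 of HFCF at 1 month, or replicates 1 or 2 of HFCF at 3 months, with adjusted p of 0.0501 to 0.181. It was also lost under limma-voom (adjusted p = 0.0501). A fit of the 2 HFCF groups alone lost both Mat2a (adjusted p = 0.0928) and Ahcy (adjusted p = 0.0585), which left 4 of the 10. DESeq2 called Gnmt in addition (-0.69, adjusted p = 0.0259), 7 in all. Of all genes 1298 were called in the fit of the 2 groups and 2653 by DESeq2.

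On chow none of the 10 genes differed between 3 months and 1 month in edgeR or DESeq2, and 1 of the 10 had an unadjusted p under 0.05. Of all genes edgeR called 0.00679%, and 1190 had an unadjusted p under 0.05 in edgeR. DESeq2 called 68 of all genes. Bhmt averaged 2144 ± 518 CPM in chow livers at 3 months and 3398 ± 476 CPM at 1 month (SD, n = 3 each), a difference of -0.66 ± 0.24 (edgeR adjusted p = 0.492). Mat1a differed by -0.46 ± 0.26 (edgeR adjusted p = 0.693) and Nnmt by -0.64 ± 0.38 (edgeR adjusted p = 0.723). Chow livers of the 2 ages did not overlap for these 3 genes, nor did they for 7.67% of all genes in the downward and 7.88% in the upward direction. The ratio of Mat1a to Mat2a FPKM also differed between the chow groups without overlap, at 216, 172 and 164 at 3 months, against 340, 244 and 259 at 1 month. Its log2 difference of -0.60 (two-sided exact permutation p = 0.1, the smallest that 3 against 3 allows) was near in size to the -0.64 of diet at 1 month. Over time on HFCF that log2 difference was -1.83 (two-sided exact permutation p = 0.1), again without overlap. The comparisons of diet at 3 months and of chow over time share the chow livers at 3 months, and those of HFCF over time share the HFCF livers with both diet comparisons.

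Across the 4 groups, HFCF at 3 months held the lowest mean CPM of all 10 genes except Mat2a, for which it held the highest. By mean FPKM this did not hold for Pemt, at 82.2 there and 77.4 in HFCF livers at 1 month. Nor did it hold for Shmt1, at 51.9 there and 51.7 in chow livers at 1 month. For Mat1a, Bhmt, Ahcy, Cth and Nnmt the 3 HFCF livers at 3 months did not overlap the next group in the order. For Gnmt and Cbs they overlapped HFCF at 1 month, which came next, and the step without overlap lay between HFCF at 1 month and chow at 3 months. For Pemt and Shmt1 all neighbours in the order overlapped.

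The other genes of the surrounding pathways were described from whole lists. Of 12 partners of the methionine cycle 2 fell and 0 rose at 3 months, with a median change of -0.05. Bhmt2, a methyltransferase related to Bhmt, averaged 193 ± 29.5 CPM in HFCF livers and 313 ± 37.5 CPM in chow livers (SD, n = 3 each), a change of -0.70 ± 0.14 (edgeR adjusted p = 0.00497). Ahcyl1, an Ahcy-like protein, changed by -0.62 ± 0.14 (edgeR adjusted p = 0.00814). Without replicate 3 of HFCF at 3 months 5 partners fell, and 3631 of all genes were called, against 2802 with all 12 libraries. Methionine synthase Mtr, the folate-dependent route back to methionine, differed by 0.29 ± 0.14 and did not pass (edgeR adjusted p = 0.175).

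**Figure D5:**
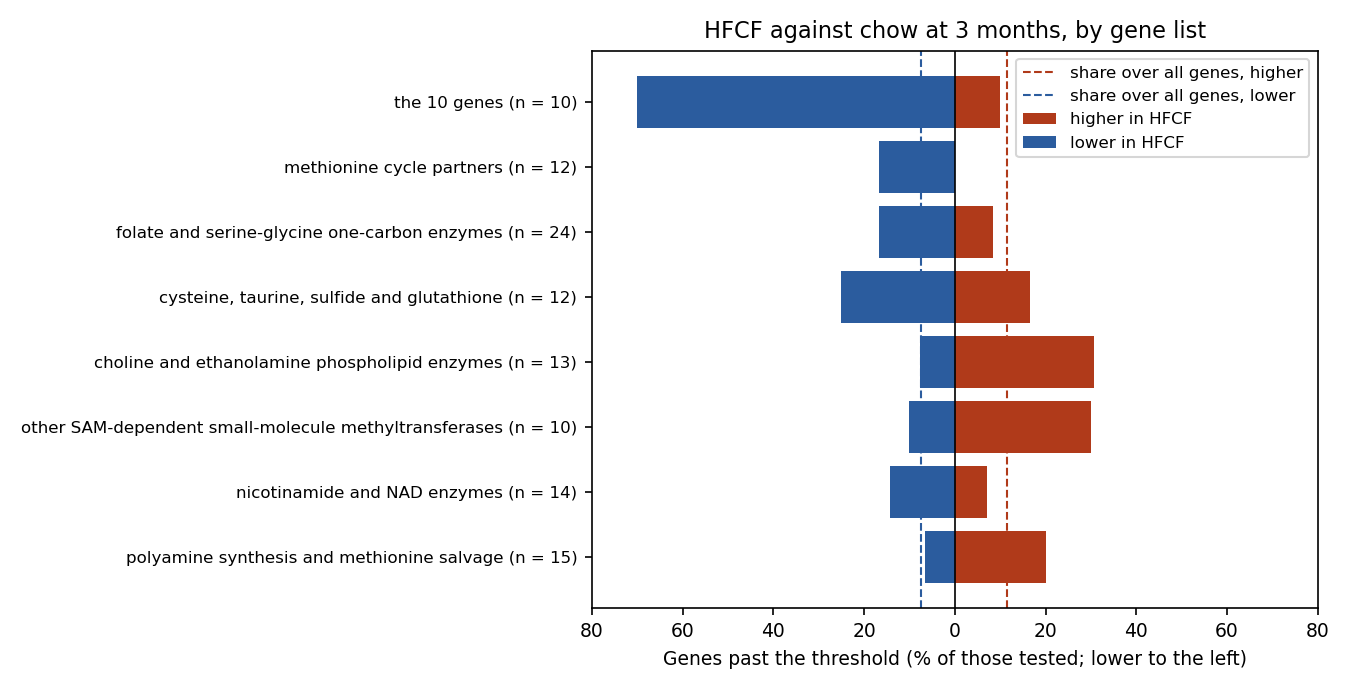
Share of genes past the threshold at 3 months (x axis, % of the genes tested in each list) that were higher in HFCF, to the right, or lower, to the left, for the 10 genes and 7 pathway lists. Dashed lines give the shares over all genes tested, 11.5% higher and 7.50% lower. The 10 genes have 7 called lower and 1 higher. Among the pathway lists the largest share higher is 4 of 13 choline and ethanolamine enzymes. The largest share lower is 3 of 12 genes of cysteine, taurine, sulfide and glutathione metabolism.

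Among 24 folate and serine-glycine enzymes tested of 26 listed, 4 fell and 2 rose at 3 months, with a median of -0.01. Gldc, the glycine decarboxylase that releases one-carbon units from glycine, averaged 126 ± 11.6 CPM in HFCF livers and 244 ± 40.1 CPM in chow livers (SD, n = 3 each), a change of -0.96 ± 0.19 (edgeR adjusted p = 0.00493). Mthfd1, the cytosolic folate interconversion enzyme, changed by -0.60 ± 0.11 (edgeR adjusted p = 0.00254), and Aldh1l1, which disposes of formyl groups on folate, by -0.74 ± 0.20 (edgeR adjusted p = 0.019). Psat1 of serine synthesis rose by 2.04 ± 0.59 (edgeR adjusted p = 0.029) at a low level, 1.56 ± 0.836 CPM in HFCF livers and 0.388 ± 0.0633 CPM in chow livers (SD, n = 3 each). Aldh1l1 lost its call without chow replicate 1, HFCF replicate 1 or HFCF replicate 2 of the 3-month groups (adjusted p up to 0.0824), and Psat1 without any of the 3 chow livers or without HFCF replicates 1 or 2 (adjusted p up to 0.14). Gldc was also the 1 gene of this list to fall at 1 month, with 137 ± 36.8 CPM in HFCF livers and 358 ± 55.7 CPM in chow livers (SD, n = 3 each), a change of -1.38 ± 0.19 (edgeR adjusted p = 0.00558).

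Downstream of Cth, 3 of 12 genes of cysteine, taurine, sulfide and glutathione metabolism fell and 2 rose at 3 months, with a median of -0.19. Got1, the cytosolic aspartate aminotransferase that also acts on a cysteine oxidation product, averaged 129 ± 76.8 CPM in HFCF livers and 770 ± 98.5 CPM in chow livers (SD, n = 3 each), a change of -2.58 ± 0.41 (edgeR adjusted p = 0.00272). Cdo1 (-0.60 ± 0.18) and Csad (-0.92 ± 0.24), the taurine-forming steps from cysteine, fell with edgeR adjusted p of 0.0319 and 0.0223. Gclc, the rate-limiting enzyme of glutathione synthesis from cysteine, rose to 392 ± 38.2 CPM in HFCF livers, against 184 ± 20.3 CPM in chow livers (SD, n = 3 each), a change of 1.09 ± 0.15 (edgeR adjusted p = 0.000609). Cdo1 lost its call without any 1 of the 3-month libraries except HFCF replicate 3 (adjusted p up to 0.15), and Csad without chow replicate 3, HFCF replicate 1 or HFCF replicate 2 (adjusted p up to 0.0904). The number that fell was 1 without HFCF replicate 1 or 2 and 5 without HFCF replicate 3. Of all genes 1478, 1255 and 3631 were called without HFCF replicates 1, 2 and 3 in that order, against 2802 with all 12 libraries.

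Other users of SAM changed in both directions. Of 10 further small-molecule methyltransferases tested of 12 listed, 3 rose and 1 fell at 3 months, with a median of 0.18. Hnmt, which methylates histamine, had 57.9 ± 1.02 CPM in HFCF livers and 23.1 ± 2.91 CPM in chow livers (SD, n = 3 each), a change of 1.32 ± 0.15 (edgeR adjusted p = 0.000311). Inmt, an indolethylamine methyltransferase, rose by 1.86 ± 0.48 (edgeR adjusted p = 0.0257), a call lost without chow replicates 2 or 3 or without any 1 of the HFCF livers at 3 months (adjusted p up to 0.0955). As3mt, the arsenite methyltransferase, fell by 0.91 on the log2 scale (edgeR adjusted p = 0.00514). At 1 month Mettl7b rose by 0.57 ± 0.13 (edgeR adjusted p = 0.0422). That call was lost in 10 of the 12 settings that left out a library, up to an adjusted p of 0.17 without HFCF replicate 1 of that month.

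In phospholipid synthesis, where Pemt acts, 4 of 13 choline and ethanolamine enzymes tested rose and 1 fell at 3 months, with a median of 0.14. Etnk2, an ethanolamine kinase, averaged 232 ± 31.5 CPM in HFCF livers and 456 ± 43.2 CPM in chow livers (SD, n = 3 each), a change of -0.98 ± 0.16 (edgeR adjusted p = 0.00152). Lpcat3, which remodels phosphatidylcholine, rose by 0.58 ± 0.12 (edgeR adjusted p = 0.00566), and Chkb, a choline kinase, by 0.47 ± 0.12 (edgeR adjusted p = 0.015). The number that rose was 1 without chow replicate 2 or HFCF replicate 2 and 2 without chow replicate 1 or HFCF replicate 1 of the 3-month groups. Chkb was among the lost calls, with an adjusted p up to 0.0643. At 1 month Chkb alone of this list rose, by 0.52 ± 0.12 (edgeR adjusted p = 0.0401), and that call was lost in 8 of the settings that left out a library (adjusted p up to 0.164).

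Around the substrate of Nnmt, 2 of 14 nicotinamide and NAD genes tested fell and 1 rose at 3 months, with a median of 0.12. Nadsyn1, the NAD synthetase, averaged 24.2 ± 2.24 CPM in HFCF livers and 40.7 ± 1.79 CPM in chow livers (SD, n = 3 each), a change of -0.75 ± 0.11 (edgeR adjusted p = 0.00106). Naprt1, which starts NAD synthesis from nicotinic acid, changed by -0.53 ± 0.14 (edgeR adjusted p = 0.0173) and lost its call without chow replicate 1, HFCF replicate 1 or HFCF replicate 2 (adjusted p up to 0.0801). None of this list was called at 1 month by edgeR, and DESeq2 called 2 there, both higher.

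Polyamine synthesis also draws on SAM. Of 15 genes of polyamine metabolism and methionine salvage, 3 rose and 1 fell at 3 months, with a median of 0.24. Sat1, the spermidine and spermine acetyltransferase, averaged 70.2 ± 14.1 CPM in HFCF livers and 34.7 ± 4.99 CPM in chow livers (SD, n = 3 each), a change of 1.02 ± 0.13 (edgeR adjusted p = 0.000532). The 1 gene that fell was Odc1, the ornithine decarboxylase of polyamine synthesis, by 0.52 on the log2 scale (edgeR adjusted p = 0.0073). Smox, spermine oxidase, rose by 1.21 ± 0.31 (edgeR adjusted p = 0.0154) and Mtap, which recovers methionine from methylthioadenosine, by 0.30 ± 0.10 (edgeR adjusted p = 0.0484). Mtap was lost in 11 of the 12 settings that left out a library. The number that rose was 1 without chow replicate 2, HFCF replicate 1 or HFCF replicate 2 of the 3-month groups.

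Marker genes of liver cell types moved at 3 months as well. Of 12 hepatocyte markers 6 fell and 0 rose, with a median of -0.51, and without HFCF replicate 2 3 fell. Of 8 periportal hepatocyte markers 6 fell and 0 rose, with a median of -1.25, and they summed to 4613 to 6803 CPM in HFCF livers at 3 months, against 10501 to 12508 CPM in chow livers. Of 8 pericentral markers 1 rose and 0 fell, with a median of 0.03, and the sum was 10700 to 15452 CPM in HFCF livers and 11604 to 12538 CPM in chow livers. With 1 library left out 4 to 6 periportal markers fell, and 0 to 2 pericentral markers rose and 0 to 1 fell. Alb and Ttr differed by -0.44 ± 0.21 and 0.00 ± 0.16, neither past the threshold (edgeR adjusted p = 0.16 and 0.988), while Cps1, the urea cycle entry enzyme, changed by -1.72 ± 0.29 (edgeR adjusted p = 0.00197). At 1 month no marker of these 3 lists passed in edgeR.

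Of 10 markers of recruited and lipid-associated macrophages 9 rose and 0 fell at 3 months, with a median of 3.34. They summed to 591, 589 and 201 CPM in HFCF livers at 3 months, against 88.3 to 117 CPM in chow livers, so replicate 3, the HFCF liver with the highest levels of the 7 genes that fell, had the lowest sum. Of 10 stellate cell markers 4 rose and 0 fell, with a sum of 606 to 1170 CPM in HFCF livers and 427 to 606 CPM in chow livers. Of 10 Kupffer cell markers 4 rose and 1 fell, and of 10 sinusoidal endothelial markers 0 rose and 1 fell. The 3 adipocyte markers tested, of 6 listed, rose, and the 4 in the table summed to 135 to 167 CPM in HFCF livers and 4.9 to 7.22 CPM in chow livers. Of 7 cholangiocyte markers tested 2 rose and 0 fell, with a sum of 123 to 308 CPM in HFCF livers and 76.1 to 88.4 CPM in chow livers. Spp1 is on this list and on that of recruited and lipid-associated macrophages, so these lists are not separate. At low levels the 3 neutrophil markers tested rose, S100a8 by 1.63 ± 0.47, Csf3r by 0.90 ± 0.29 and S100a9 by a value between them (edgeR adjusted p = 0.0263, 0.0415 and 0.0316), and the 5 in the table summed to 4.28 to 7.64 CPM in HFCF livers and 2.1 to 3.77 CPM in chow livers. Of 5 B cell markers tested 2 rose, Cd79b by 1.57 ± 0.42 and Cd22 by 1.39 ± 0.36 (edgeR adjusted p = 0.0195 and 0.0159), with a sum of 4.9 to 9.87 CPM in HFCF livers and 3 to 5.55 CPM in chow livers. None of 2 T and NK cell markers and 4 red blood cell markers tested passed, and the red blood cell list summed to at most 154 CPM in any library. With 1 library left out, 0 to 3 neutrophil, 0 to 2 B cell and 0 to 7 Kupffer cell markers rose at 3 months. In the same settings 1 to 6 stellate cell and 1 to 3 adipocyte markers rose. For cholangiocyte markers the number was 2 to 4, and for recruited and lipid-associated macrophage markers 7 to 9. No marker in the table was at 0 in all libraries of a group. The part of cell composition in the changes of the 10 genes was not tested.

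Over the 12 libraries the 7 genes that fell followed each other, with Pearson correlations of log2 CPM between 0.726 for Bhmt with Cbs and 0.979 for Cth with Nnmt. Mat2a ran against all of the other 9, from -0.877 with Nnmt to -0.542 with Shmt1. Pemt correlated with the 7 at 0.322 to 0.714 and Shmt1 at 0.536 to 0.718. These are descriptions over 12 libraries in 4 groups, and the difference of HFCF at 3 months from the rest enters every one of them.

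Among 9079 genes with a mean of at least 5 CPM, the transcript most like Mat1a over the 12 libraries was Got1 (r = 0.992), followed by the urea cycle gene Cps1 (r = 0.986). Got1 was also the closest to Cth (r = 0.981) and the second closest to Nnmt (r = 0.987), whose closest was the histidine ammonia-lyase gene Hal (r = 0.987). For Bhmt they were the interleukin receptor gene Il6ra (r = 0.981) and its relative Bhmt2 (r = 0.975). Gnmt and Cbs shared the liver glutaminase gene Gls2 among their closest (r = 0.968 and 0.963), and Mthfd1 was also close to Gnmt (r = 0.967). The closest to Ahcy was Serpinf2 (r = 0.973). For Mat2a it was Cyp2a22 (r = 0.940). Cps1 is also on the hepatocyte list and Hal and Gls2 on the periportal list above.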

How the data were processed

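RNA of frozen livers was sequenced with a stranded kit after ribosomal RNA depletion, per the labels' protocols. The authors deposited raw read counts per gene, on genome build mm10 per the submitters' processing notes. Not given in the sources used here are the aligner, the counter and the strand it read. The deposited FPKM values equal the count over the gene's bases and 1 total per library, and served to set levels between genes. The log2 ratios deposited by the authors have the group named first as numerator and, for the 8 genes called at 3 months, are smaller in size than those fitted here. The deposited adjusted p is a score that exceeds 1 in places and that no header explains. It was read, from its values, as -10 times log10 of p, so each p credited to the authors rests on this reading. Under it 3091 genes pass 0.05 at 3 months and 628 at 1 month, against 2988 and 631 called by DESeq2 here. The other deposited columns, positions and Total BPs, come from the authors' gene models, and starts were raised by 1 because they count from 0. An empty line was left out, 1 in all.

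Counts were fitted in R 4.3.3 with edgeR 4.0.16: filterByExpr kept 14725 genes and removed 1310, TMM factors were 0.921 to 1.14, and a robust quasi-likelihood model with 4 group means left 8 residual degrees of freedom at a common biological coefficient of variation of 0.153. The SE is the size of the log2 fold change over the square root of F. The script was checked on simulated data. Replicates are those of the labels, and p-values measure the spread between them. Libraries of a group were not duplicates, since chi-square per gene was 12.1 to 59.9. Ratios used exact permutation tests. Alternatives used DESeq2 1.42.0, limma 3.58.1, other scalings and filters, a replicate block, and left-out libraries. Promoters are from RefSeq, GRCm38.p6. 7 of the 10 genes matched there, and Mat1a, Cth and Nnmt did not. Figures were drawn with Python 3.11.15 and matplotlib 3.10.9.

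Genes named outside the 10 were up to 4 per pathway list at 3 months and up to 2 at 1 month, by smallest p among those called, and the genes of at least 5 CPM most correlated with each called gene. Some genes that this rule names are not reported here. Mtr and a few cell type markers were named in addition, after their values were seen. The 10 genes, the lists and the alternatives were chosen with earlier results of these data known.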

Additional observations from a re-analysis of the deposited data

How the results depend on the processing

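At 3 months the number of the 10 genes past the threshold was 8 in edgeR and 6 to 9 when 1 library was left out, over a background of 2802 genes called, 1255 to 3631 with 1 library left out. Scaling by total library size put the median of all genes at 0.127 on the log2 scale at 3 months, against -0.004 under TMM. It called 3090 genes, 81.4% of them higher, against 60.6% under TMM. Mat2a was higher and the 7 genes that fell were lower under both scalings. Total library size also raised the rises to 6 each among the folate and the polyamine lists. At 1 month 301 genes were called, 147 when only the 2 groups compared were fitted, 149 without both libraries that stood apart, 631 by DESeq2, and 65 to 396 with 1 library left out. Of the 10 genes DESeq2 called 2 at 1 month, and 0 to 1 were called with 1 library left out. For the difference of the effects 6 genes were called, 0 under total library size, 3 by limma-voom, 350 by DESeq2, 635 without both libraries that stood apart, and 0 to 878 with 1 left out. Of the 10 genes 6 passed that test without both libraries, 1 by DESeq2 and 0 to 3 with 1 library left out. Over time on chow 1 gene was called, 2 with DESeq2 size factors, with total library size, without a filter and without both libraries, 17 in a fit of the 2 groups alone, 68 by DESeq2, and 1 to 8 with 1 library left out, never 1 of the 10. Over time on HFCF 2385 genes were called, 1298 in a fit of the 2 groups alone, 3808 without both libraries, 732 to 3562 with 1 left out, and 3907 under total library size, of which 87.6% were higher, against 57.1%. Of the 10 genes 4 to 9 were called there with 1 library left out. The cause of these shifts was not tested, except that left-out libraries reduce the sample.

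Signs turned for 16 settings of genes that were not called. At 1 month, over settings that left out 1 library, Cth ranged from -0.72 to 0.11 and Pemt from -0.13 to 0.05. There Cth was 0.11 without chow replicate 1 and without both libraries, Pemt 0.05 and 0.06 in these settings, and Shmt1 -0.02 without HFCF replicate 2. Over time on chow such settings gave -0.27 to 0.10 for Gnmt, -0.24 to 0.22 for Cbs, -0.09 to 0.12 for Pemt and -0.06 to 0.12 for Shmt1. Gnmt was 0.10 and Cbs 0.22 without replicate 1 at 1 month, alone or with the other library, and under total library size Ahcy was 0.04 and Cbs 0.02. There Pemt was -0.07 and Shmt1 -0.01 without chow replicate 2 at 1 month, and -0.09 and -0.06 without chow replicate 1 at 3 months. Over time on HFCF Pemt was 0.09 under total library size. The other settings of the 10 genes kept their sign.

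Same-numbered replicates did not pair the samples: over 18 pairs their deviations correlated at -0.173 to 0.19. With the replicate number as a block, Bhmt at 1 month passed (-0.81, adjusted p = 0.0439), so that 1 of the 10 genes was called there. Of all genes 211 were called at 1 month with the block, against 301 without it. For the difference of the effects 48 genes were called with the block, against 6 without it. The block changed no other call of the 10 genes. With 3 libraries a group, the ratios could not go below a p of 0.1.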
